A study of Xenopus tropicalis with 4 samples.

Results

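Otx1, otx2, hesx1, fezf2, six3, rax and pax6 are 7 genes of the vertebrate head and eye plan. They were followed here in gastrula ectoderm after injection of a morpholino oligonucleotide (MO, an antisense blocker of a chosen transcript) against foxh1. The genes were picked by symbol among the 28850 genes of the deposited tables, and all 7 were found. Of the symbols, 6 name homeobox genes, whereas fezf2 encodes a zinc finger protein, so the 7 are better called anterior neural regulators than a homeobox set. In this text, tested genes are those that passed a filter on low counts (about 10 counts, scaled for depth, in at least 2 libraries, and 15 counts in all). The filter kept 6 of the 7 genes, all but fezf2, and 13756 of all genes.

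The samples were animal cap explants, the prospective ectoderm cut from the top of the embryo, of wild-type Xenopus tropicalis at stage 10.5. The first group had been injected at the 1-cell stage with 22.5 ng of foxh1 MO and the second with 22.5 ng of a standard control MO, and all embryos were raised at 25 °C. Each group held 2 libraries. The labels do not say whether these came from separate clutches, so p-values here reflect only how these 2 libraries per group spread. That spread may be technical. For each gene the test also drew on the spread of the other tested genes in the same libraries. Only 1 MO against foxh1 was used, and no rescue sample is among the libraries analysed here.

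The Otx proteins are homeodomain transcription factors needed in vertebrates for forebrain and midbrain formation, and in Xenopus otx2 also promotes the cement gland, an adhesive organ of the larval head. At gastrula stages otx2 is known from anterior ectoderm as well as from the organizer, the dorsal signalling centre. The repressor gene hesx1 (Xanf1 in older Xenopus work) marks the most anterior neural plate, fezf2 acts in the forebrain, and six3, rax and pax6 belong to the eye field network. Foxh1 is a forkhead factor that binds DNA together with Smad2 in Nodal signalling.

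Libraries held 28567827 and 25632619 expected counts in the group labelled Foxh1 MO and 29750009 and 29800530 in control MO. Ribosomal RNA gene models took 29.8% to 32.2% of the counts in Foxh1 MO and 28.3% to 34.0% in control MO. The targeted transcript, foxh1, stood at 264 and 174 CPM (counts scaled to a common library size by TMM) in the libraries labelled Foxh1 MO, against 79.3 and 71.2 CPM in control MO. A higher transcript level does not show whether the protein was lost, so directions below are given for the libraries labelled Foxh1 MO. These are bulk samples, in which fewer cells of a type and less RNA per cell cannot be told apart.

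Otx1 and otx2 were the 2 genes called lower. For both, each library labelled Foxh1 MO lay below each control library, whereas the related gene crx did not pass the test. The other 4 tested genes, hesx1, six3, rax and pax6, had few reads, and none of them passed. Thus 2 of 6 tested genes were called lower, where 4.07% of all 13756 tested genes were called lower and 8.24% were called in either direction (edgeR quasi-likelihood test, Benjamini-Hochberg adjusted p under 0.05). The background share called lower was 10.5% without the first library labelled Foxh1 MO and 2.36% without the second, and otx1 and otx2 were the members called in each case. The 7 genes were chosen with results of these data known, so this count describes them and supports no further statement. Their median log2 fold change was -0.80 over the 6 tested genes, beside -0.00019 over all tested genes.

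Otx1 was the most abundant of the 7. It stood at 24.5 and 20.7 CPM in the libraries labelled Foxh1 MO, against 53.1 and 63.6 CPM in control MO. The 2 libraries of each group lay close together and the groups did not overlap: the mean was 22.6 ± 2.65 CPM in Foxh1 MO and 58.3 ± 7.40 CPM in control MO (SD, n = 2 each). The transcript was thus 2.58-fold lower (log2 fold change -1.37, SE 0.15, 95% interval -1.70 to -1.03; edgeR adjusted p = 0.000287). Of the 13756 tested genes, 326 (2.37%) had a lower log2 fold change. Without each library in turn the value was -1.49 to -1.23, and the call held in all 4 of these fits. In the authors' deposited table otx1 had a log2 fold change of -1.37 and a false discovery rate of 4.07e-10.

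Otx2 gave 8.03 and 6.60 CPM in the libraries labelled Foxh1 MO, against 13.004 and 14.7 CPM in control MO. Both libraries labelled Foxh1 MO lay below both control libraries, with means of 7.32 ± 1.01 and 13.8 ± 1.18 CPM in Foxh1 MO and control MO (SD, n = 2 each). This was 1.89-fold lower (log2 fold change -0.92, SE 0.17, 95% interval -1.30 to -0.54; edgeR adjusted p = 0.00696). The log2 fold change was -1.06 to -0.79 when each library was left out in turn, with the call kept each time. The authors' deposited table lists -0.92 with a false discovery rate of 0.00116.

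**Figure D1:**
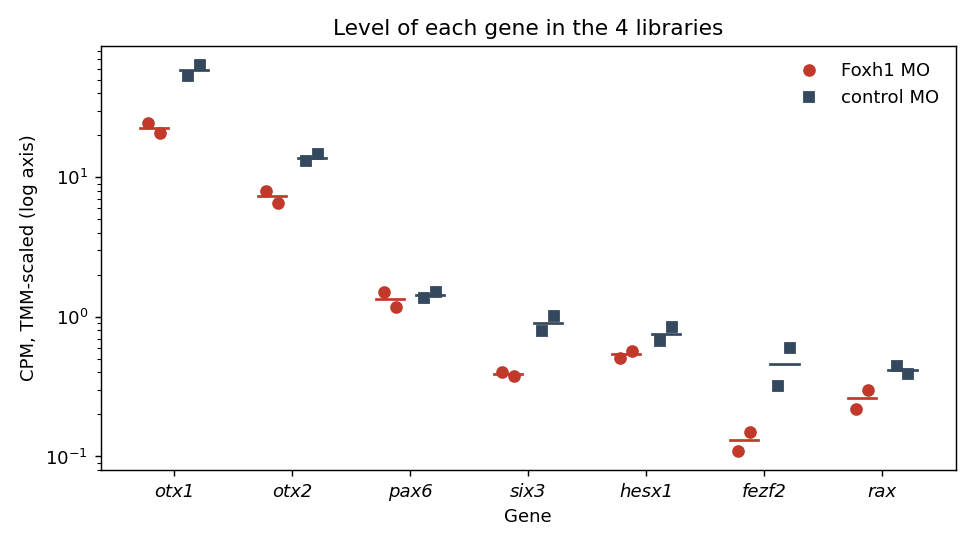
CPM (TMM-scaled, log axis) of the 7 genes in the 2 libraries labelled Foxh1 MO (red circles) and the 2 of control MO (blue squares); bars mark group means, and genes run from high to low control level. Otx1 and otx2 stand above the rest, and pax6 is the gene whose groups overlap.

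The fall of otx1 was steeper than that of otx2 for each pairing of a Foxh1 MO with a control MO library, but the design is too small to test it. Within a library, which removes depth from the comparison, otx1 reached 2.705 and 2.746 times the otx2 level in TPM (transcript abundance per length, scaled to library size) in Foxh1 MO, against 3.59 and 3.84 times in control MO. The mean log2 ratio was 1.45 ± 0.0154 in Foxh1 MO and 1.89 ± 0.0694 in control MO (SD, n = 2 each), a difference of -0.45. An exact two-sided permutation test over libraries gave p = 0.333, the smallest that 2 against 2 allows. The 95% intervals of the 2 log2 fold changes, given above, overlapped.

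The third Otx-family gene in the files is crx, named otx5 in Xenopus and known from photoreceptors and pineal cells. It also stands in the anterior neural and eye field list below, so it is no neutral reference for that tissue. It had 80.8 and 96.4 TPM in Foxh1 MO, against 87.6 and 84.7 TPM in control MO, so the groups overlapped. Its log2 fold change was 0.08 (SE 0.14, 95% interval -0.22 to 0.38; edgeR adjusted p = 0.814). That interval lies wholly above those of otx1 and otx2. The value was -0.03 to 0.18 when each library was left out. Relative to crx within each library, otx1 stood at log2 ratios of -1.68 and -2.13 in Foxh1 MO, against -0.55 and -0.37 in control MO. For otx2 the log2 ratios to crx were -3.12 and -3.59 in Foxh1 MO, against -2.39 and -2.31 in control MO. Neither set of ratios overlapped between the groups (exact permutation p = 0.333 for each, the smallest possible; both ratios were added after the values were seen).

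Summed over otx1, otx2 and crx, Otx-family transcripts made up 115 and 127 TPM in Foxh1 MO, against 164 and 167 TPM in control MO. Crx supplied 70.1% and 76.2% of that sum in Foxh1 MO, against 53.4% and 50.7% in control MO. The share of otx1 was 21.9% and 17.4% in Foxh1 MO, against 36.5% and 39.2% in control MO. The 3 genes are similar in sequence, and RSEM can divide a read that fits more than 1 gene into fractions. Their expected counts were whole numbers in every library, so no such division shows. Genes such as sox17b.1 did have fractions (42.28 and 44.53 expected counts in Foxh1 MO). Whether single reads were given to the wrong gene cannot be seen.

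**Figure D2:**
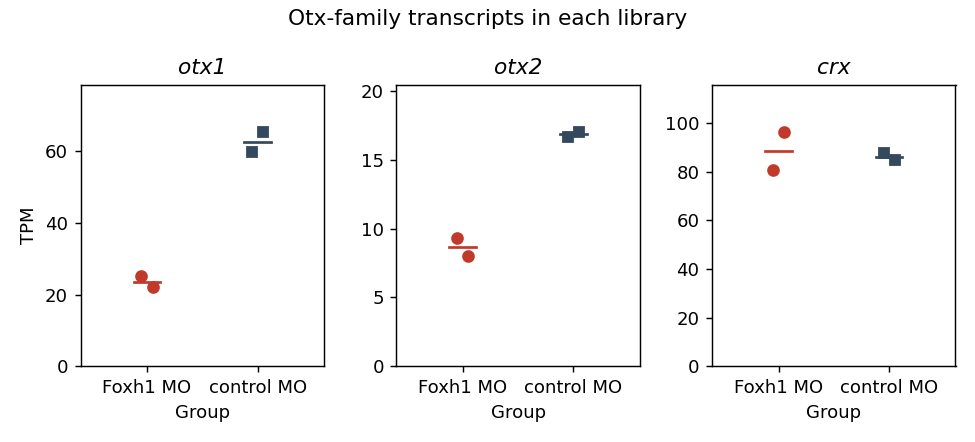
TPM (linear axes from 0, a separate scale per gene) of otx1, otx2 and crx in the 2 libraries labelled Foxh1 MO (red circles) and the 2 of control MO (blue squares), with bars at group means. The groups are apart for otx1 (25.2 and 22.1 in Foxh1 MO, 59.9 and 65.4 TPM in control MO) and otx2, and overlap for crx.

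Hesx1, the anterior neural plate repressor gene, had 14 and 15 counts in Foxh1 MO, against 21 and 24 counts in control MO. Scaled for depth these were 0.511 and 0.566 CPM in Foxh1 MO and 0.669 and 0.844 CPM in control MO, so the groups did not overlap. The log2 fold change was -0.48 (SE 0.42, 95% interval -1.39 to 0.42; edgeR adjusted p = 0.569). The interval holds both a fall as large as that of otx1 and a small rise, so a change was not detectable at this depth.

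Fezf2, the forebrain zinc finger gene, was too low to be tested with the filter, and it is not listed in the authors' deposited table of 13758 genes. It had 3 and 4 counts in Foxh1 MO, against 10 and 17 counts in control MO. Exact Poisson intervals (95%, counting error only) were 0.619 to 8.77 and 1.09 to 10.2 counts for the libraries labelled Foxh1 MO, and 4.80 to 18.4 and 9.90 to 27.2 counts for control MO. The intervals overlapped in each pairing of a Foxh1 MO with a control library, except the first Foxh1 MO library with the second control. Overlap of such intervals is not a test of the difference. In a fit with no filter the log2 fold change was -1.77 (SE 0.72, edgeR adjusted p = 0.133), which did not pass.

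Six3, a homeobox gene of the forebrain and eye field, had 11 and 10 counts in Foxh1 MO, against 25 and 29 counts in control MO. This is 0.402 and 0.377 CPM in Foxh1 MO and 0.797 and 1.02 CPM in control MO, with no overlap. Its log2 fold change of -1.21 (SE 0.43, 95% interval -2.14 to -0.27) lay between those of otx1 and otx2, with an unadjusted p of 0.0154 and an edgeR adjusted p of 0.114. It passed under limma-trend on log2(TPM + 1) (adjusted p = 0.0422) and on log2(TPM + 0.1) (adjusted p = 0.0464), and in none of the other 11 alternatives that gave it a value. The authors' deposited table gives a false discovery rate of 0.130 for six3.

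Rax, which marks the eye field, had 6 and 8 counts in Foxh1 MO, against 14 and 11 counts in control MO. The log2 fold change was -0.67 (SE 0.53, 95% interval -1.83 to 0.48; edgeR adjusted p = 0.525). At 0.219 and 0.302 CPM in Foxh1 MO and 0.446 and 0.387 CPM in control MO the groups did not overlap, but the interval spans a rise and a steep fall.

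Pax6, a paired-box and homeobox gene of eye and forebrain, had 41 and 31 counts in Foxh1 MO, against 43 and 43 counts in control MO. It was the one member whose groups overlapped, at 1.497 and 1.169 CPM in Foxh1 MO and 1.37 and 1.51 CPM in control MO. The log2 fold change was -0.11 (SE 0.32, 95% interval -0.81 to 0.59; edgeR adjusted p = 0.896), and it was 0.049 without the second library labelled Foxh1 MO. The interval does not reach the log2 fold change of otx2 (-0.92), but it overlaps the otx2 interval (-1.30 to -0.54).

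**Figure D3:**
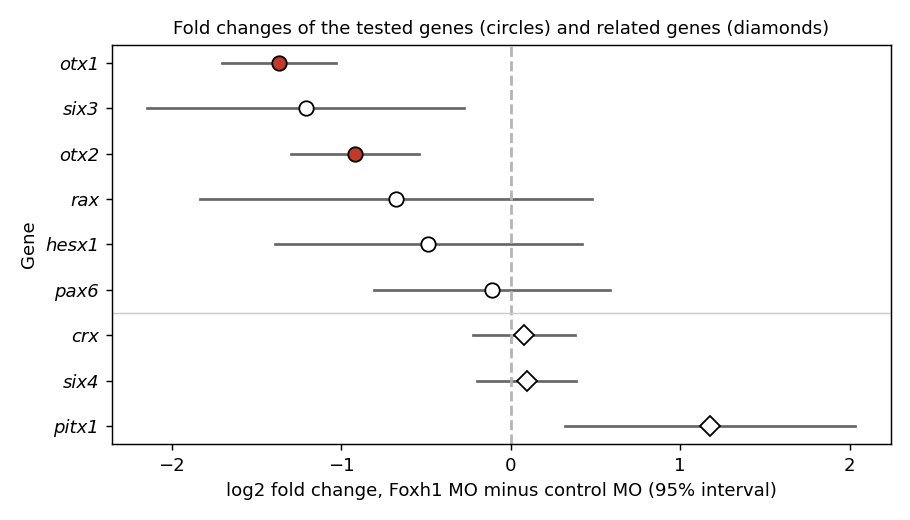
Log2 fold change (Foxh1 MO minus control MO) of the 6 tested genes (circles) and of the 3 tested related genes crx, six4 and pitx1 (diamonds), with 95% intervals; red fill marks an edgeR adjusted p under 0.05. Otx1 (-1.37) and otx2 (-0.92) are filled, and the intervals of hesx1, rax and pax6 include 0.

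In 6 of the 7 genes, and 5 of the 6 tested, both libraries labelled Foxh1 MO lay below both control libraries. Among all tested genes this held for 24.3%. All 6 tested genes had a negative log2 fold change, as did 50.0% of all tested genes. Rax reached the count filter only in the control libraries (14 and 11 counts, against 6 and 8 in Foxh1 MO). The filter thus favoured a negative sign and no overlap for rax. The 7 genes share their 4 libraries, so these counts are not independent of each other.

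Levels between genes were compared in TPM. In control MO the order of means was otx1 (62.7 ± 3.93 TPM), otx2 (16.9 ± 0.247), hesx1 (2.87 ± 0.219), pax6 (1.29 ± 0.0283), six3 (0.805 ± 0.0919), fezf2 (0.585 ± 0.219) and rax (0.370 ± 0.0566; SD, n = 2 for each). Six3 and fezf2, and fezf2 and rax, differed by no more than about the spread of fezf2. In the libraries labelled Foxh1 MO the order was otx1 (23.6 ± 2.23 TPM), otx2 (8.68 ± 0.912), hesx1 (1.99 ± 0.170), pax6 (1.17 ± 0.283), six3 (0.335 ± 0.00707), rax (0.220 ± 0.0566) and fezf2 (0.165 ± 0.0354). Rax and fezf2 overlapped there. Among the 19492 genes above 0 TPM in control MO, otx1 stood at the 85.1st percentile, otx2 at the 65.6th and the other 5 between the 28.5th and the 45.3rd.

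The 7 genes together made up 38.4 and 33.9 TPM in Foxh1 MO, against 82.1 and 88.8 TPM in control MO, or 2.36-fold less on average. Otx1 and otx2 supplied 89.9% and 88.6% of that sum in Foxh1 MO, against 93.2% and 92.9% in control MO. The sum thus largely restates otx1 and otx2.

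Related genes of the same protein families were mostly too low to test. Of 11 such genes in the files 3 were tested and 0 passed by edgeR, DESeq2 or limma-voom (with an unadjusted p under 0.05 only pitx1). Without the first library labelled Foxh1 MO, or without the second control, 1 was called lower. The homeobox gene six4 had a log2 fold change of 0.09 (SE 0.13, adjusted p = 0.761). Pitx1, which marks the cement gland region, had 47 and 29 counts in Foxh1 MO, against 17 and 20 counts in control MO (log2 fold change 1.17, SE 0.40, edgeR adjusted p = 0.0938). Fezf1, the close relative of fezf2, had 1 and 0 counts in Foxh1 MO, against 5 and 6 counts in control MO. Six6, the close relative of six3, had 0 and 0 counts in Foxh1 MO, against 4 and 2 counts in control MO. The organizer homeobox gene gsc had 1 and 0 counts in Foxh1 MO, against 16 and 8 counts in control MO. Six2 and pax2 stayed under 0.3 CPM on average in both groups, and rax2 had 0 counts in every library.

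The wider anterior neural and eye field list, which holds none of the 7 genes, was called lower for 3 of 19 tested genes and higher for 0 (0 also by DESeq2 and limma-voom; 7 lower and 3 higher at an unadjusted p under 0.05). Without the first library labelled Foxh1 MO 6 were lower and 1 higher. Another 15 of its 34 genes were too low to test. The list's median log2 fold change was -0.35, beside -0.00019 over all tested genes, of which 4.07% were called lower. The secreted Wnt modulator gene sfrp2 fell to 38.5 and 27.8 CPM in Foxh1 MO, against 74.1 and 89.9 CPM in control MO (2.47-fold lower, edgeR adjusted p = 0.000851). The eye gene mab21l2 fell to 5.51 and 3.96 CPM in Foxh1 MO, against 9.43 and 12.3 CPM in control MO (2.29-fold lower, edgeR adjusted p = 0.00497). The LIM homeobox gene lhx9 averaged 0.0931 ± 0.0284 CPM in Foxh1 MO and 0.480 ± 0.132 CPM in control MO (edgeR adjusted p = 0.0461). It had 2 and 3 counts in Foxh1 MO, against 18 and 11 in control MO, and reached the count filter only in control MO. Its call ended whichever library was left out (adjusted p up to 0.303). Hmgb3 and tcf7l1, a repressor of Wnt targets needed for anterior fates, had log2 fold changes of 0.26 and 0.01 and did not pass. Without each library in turn hmgb3 ranged from 0.15 to 0.36, and it was called higher without the first library labelled Foxh1 MO, while tcf7l1 ranged from -0.20 to 0.19.

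Other ectodermal lists are given for comparison, beside 4.07% of all tested genes called lower. Of 8 tested genes of the cement gland and anterior placodes 0 passed by edgeR, by DESeq2 or by limma-voom, 1 of them, pitx1, had an unadjusted p under 0.05, and the median log2 fold change was -0.19. Midbrain, hindbrain and posterior neural genes were called lower in 5 and higher in 2 of 27 tested (median -0.73; 4.17% of all tested genes were called higher), and lower in 3 and higher in 1 without the second library labelled Foxh1 MO. The count lower depended on the setting: it was 10 with a replicate block or upper-quartile factors, 9 with no filter, and 11 and 12 on log2(TPM + 1) and log2(TPM + 0.1). Those called lower were pax3, mafb, irx1, irx3 and cyp26a1, and 19 of the 27 had a negative log2 fold change. Pax3 averaged 0.705 CPM in Foxh1 MO and 1.75 CPM in control MO, and mafb 0.572 and 1.98 CPM. The calls of pax3 and mafb did not hold with every library left out. Their log2 fold changes were then -1.53 to -1.05 and -2.23 to -1.43. The 2 called higher were hoxd1 and cdx4, both known from posterior tissue. The related genes cdx1 and cdx2 had log2 fold changes of -0.97 and -0.66 and did not pass. Cdx4 did not pass without the second library labelled Foxh1 MO or the first control. Its log2 fold change was 0.64 to 1.42 over the libraries left out. Early neural plate genes were called lower in 10 and higher in 2 of 27 tested (median -0.33). Both counts shrank without the second library labelled Foxh1 MO. Non-neural ectoderm genes were called higher in 12 and lower in 3 of 30 tested (median 0.44). Without the first control library 6 of these were called higher; lower were 5 without the first library labelled Foxh1 MO and 1 without the second control.

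Genes that act with Otx proteins or in the head organizer were called lower in 4 and higher in 2 of 19 tested, with a median of -0.14. Among all tested genes 4.07% were called lower and 4.17% higher. The organizer genes gsc, cer1, dkk1, frzb, nog and foxa2 were too low to test. The tested genes include cofactor genes such as ldb1 and tle1, and foxh1, the target of the MO. Lhx1, a LIM homeobox gene of the organizer, fell to 1.39 and 1.24 CPM in Foxh1 MO, against 4.02 and 4.75 CPM in control MO (3.32-fold lower, edgeR adjusted p = 0.00178). Admp, chrd.1 and fst, which encode secreted organizer factors, were the others that fell. Foxh1 and smad2 rose (smad2 not without the first control library). Admp had 3 and 2 counts in Foxh1 MO, against 40 and 47 counts in control MO. Chrd.1 had 8 and 4 counts in Foxh1 MO, against 98 and 77 counts in control MO. Admp and chrd.1 reached the count filter only in the control libraries, so the filter favoured a negative sign for them. The genes ldb1 and ssbp3, whose proteins bridge LIM homeodomain factors, had log2 fold changes of -0.08 and -0.22 and did not pass. Without each library in turn ssbp3 ranged from -0.44 to -0.03, and it was called lower without the first library labelled Foxh1 MO.

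Some markers of mesoderm and endoderm also changed in these explants. Of 16 tested markers 4 were called lower (mix1, sox17b.1, eomes and chrd.1) and 1 higher (not), with a median of -0.85. The shares over all tested genes were 4.07% lower and 4.17% higher. Chrd.1 reached the count filter only in the control libraries, as given above. The call of sox17b.1 ended (edgeR adjusted p up to 0.0735) when the first or the second Foxh1 MO library was left out, and that of eomes without the second library of either group (up to 0.0868), so that 2 were called lower without the second library labelled Foxh1 MO. The gene not lost its call without the first library labelled Foxh1 MO or either control (up to 0.0734). The summed level of the 31 markers in the files was 212 to 253 TPM in Foxh1 MO and 205.12 to 205.15 TPM in control MO, but not alone supplied 185.77 and 135.46 TPM of it in Foxh1 MO and 110.62 and 99.49 TPM in control MO. The other 30 markers summed to 67.2 to 76.4 TPM in Foxh1 MO and 94.5 to 105.63 TPM in control MO, lower in Foxh1 MO with no overlap. Bix1.1, msgn1, nodal1, nodal2 and nodal6 had 0 counts in every library. For non-neural ectoderm the sum over 32 genes was 7017 to 7433 TPM in Foxh1 MO and 7094 to 7205 TPM in control MO, so the groups overlapped. Without its most abundant gene, cldn6.1 (1532 and 1684 TPM in Foxh1 MO, against 2185 and 2257 TPM in control MO; not called, edgeR adjusted p = 0.0787), the sum was 5485 to 5749 TPM in Foxh1 MO and 4837 to 5020 TPM in control MO, higher in Foxh1 MO with no overlap. Sums without the most abundant gene were added for all 8 lists after the values were seen. For all anterior neural genes in the files the sum was 3616 to 4091 TPM in Foxh1 MO and 3349 to 3894 TPM in control MO. The groups thus overlapped. Without hmgb3 it was 744 to 802 TPM in Foxh1 MO and 960 to 968 TPM in control MO, lower with no overlap. Of this last sum sfrp2 alone supplied 68.56 and 50.98 TPM in Foxh1 MO, against 144.92 and 158.85 TPM in control MO. The midbrain, hindbrain and posterior list and the early neural list were also lower with no overlap. The head organizer list was higher with no overlap (792 to 926 TPM in Foxh1 MO, 777 to 788 TPM in control MO). That sum includes foxh1, the target of the MO, at 153.82 and 103.8 TPM in Foxh1 MO, against 49.29 and 40.51 TPM in control MO. The rise of foxh1 alone was larger than the gap between the groups, so the sum does not describe the organizer genes. The cement gland list and the related genes overlapped. The part of the mesoderm and endoderm list or the non-neural ectoderm list in the lower otx1 and otx2 levels was not tested.

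**Figure D4:**
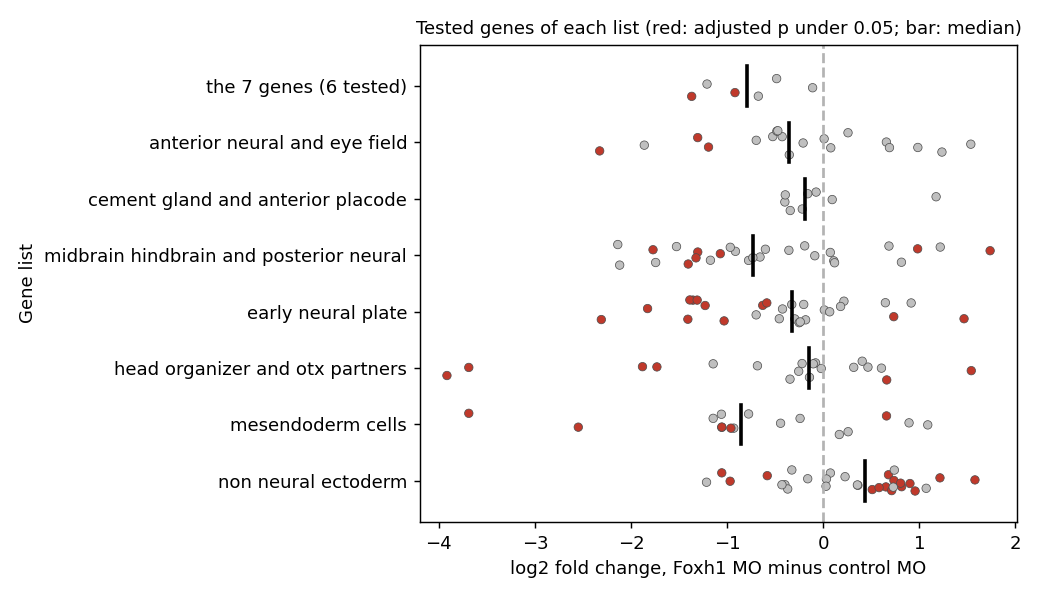
Log2 fold change (Foxh1 MO minus control MO) of every tested gene of the 7 anterior neural regulators and of 7 further lists; each point is 1 gene, red points had an edgeR adjusted p under 0.05, black bars are medians, and vertical spread within a row only separates points. The median is -0.80 for the 6 tested genes in the top row and 0.44 for non-neural ectoderm in the bottom row.

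The genes whose pattern over the 4 libraries was nearest to that of otx1 were pou3f2, irx3, nr2f1, eef1a2 and pcdh18. Nearness was the Euclidean distance between log2 CPM values centred on each gene's mean, among 11565 other tested genes with a symbol, and it was 0.0638 to 0.105 for these 5. Pou3f2, a POU homeobox gene, had 0.986 and 0.868 CPM in Foxh1 MO, against 2.199 and 2.744 CPM in control MO. The nuclear receptor gene nr2f1 had 1.35 and 1.21 CPM in Foxh1 MO, against 3.12 and 3.98 CPM in control MO. The protocadherin gene pcdh18 had 8.94 and 7.13 CPM in Foxh1 MO, against 19.6 and 21.6 CPM in control MO. Irx3, nr2f1 and pcdh18 were called lower with each library left out, pou3f2 not without the second library labelled Foxh1 MO (adjusted p = 0.0788), and eef1a2 was not called (adjusted p = 0.110). Of the other members, six3 was the 40th nearest to otx1 (distance 0.311) and otx2 the 126th (0.453), while rax, hesx1 and pax6 were the 1069th, 1106th and 3392nd.

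Nearest to otx2 by the same measure were fzd4, eomes, ndufaf5, plekhg3 and dmxl1, at distances of 0.0660 to 0.0932. The frizzled receptor gene fzd4 had 56.8 and 45.4 CPM in Foxh1 MO, against 86.3 and 102 CPM in control MO. The T-box gene eomes had 3.14 and 2.72 CPM in Foxh1 MO, against 5.26 and 6.16 CPM in control MO. All 5 were called lower, but they were picked for their likeness to otx2 over these same libraries, so their direction was fixed by the choice, as it was for the genes nearest to otx1. Eomes and ndufaf5 lost their calls without the second library of either group (adjusted p up to 0.0868 and 0.151).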

How the data were processed

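Poly(A) RNA libraries of 4 animal cap samples were analysed, 2 labelled Foxh1 MO and 2 control MO. Per the submitters' processing notes the authors used R 4.1.2, edgeR 3.36.0, STAR 2.7.3a and RSEM 1.3.3; the build and strand setting are not given in the sources used here, so reads of antisense partners cannot be told apart. The deposited tables per library hold, per the file headers, RSEM expected counts, TPM and FPKM (not used) for 28850 genes, with lengths. The authors' deposited comparison table holds log2 fold changes and log2 CPM, and, for each of 13758 genes, a p-value, an F score and a false discovery rate.

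After rounding, expected counts were tested with edgeR 4.0.16 under R 4.3.3 (filterByExpr with minimum count 10 and total 15, TMM, quasi-likelihood F test, no covariate, 2 residual degrees of freedom, Benjamini-Hochberg over 13756 genes, called under 0.05). Log2 fold changes are Foxh1 MO minus control MO. Their SE is the absolute value over the square root of F, and 95% intervals use the total degrees of freedom of the fit. CPM are TMM-scaled. Distances used log2 CPM with prior count 2. The fit was tested on simulated counts that gave every gene the same relative spread and planted changes only in better-covered genes. That check does not speak for genes with few reads, such as hesx1, six3 and rax. Columns of other samples numbered 0.

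Members and the 8 gene lists were chosen with earlier results of these data known; 18 genes stand in more than 1 list. Named genes were the 7 members, foxh1, up to 4 called genes per direction and the 2 most abundant genes not called of each list, 11 related genes (some not reported here), and the 5 nearest to otx1 and to otx2. Lists of other regions and tissues are printed mainly as counts, with a few further genes named beside them. Alternatives were other scalings and filters, DESeq2 1.42.0, limma 3.58.1 (voom, and trend on TPM), an effective length offset, a replicate block and each library left out; with a lone library in a group, it was assumed to vary like the other group. A search for motifs in promoters was planned and not run, since no promoter sequences were used here.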

Additional observations from a re-analysis of the deposited data

How the results depend on the processing

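The calls of otx1 and otx2 held in all 14 alternatives, with log2 fold changes of -1.49 to -1.23 and -1.06 to -0.79. Hesx1 and rax stayed negative and uncalled. Six3 passed only on log2(TPM + 1) (-0.43) and log2(TPM + 0.1) (-1.05). Pax6 turned to 0.049 without the second library labelled Foxh1 MO and ranged from -0.29 to 0.049 over the libraries left out. The count of the 7 genes called was 2 or 3. The log2 ratio of otx1 to otx2 moved between -0.49 and -0.40, and the summed level between -1.33 and -1.15 (log2). With few reads, hesx1, fezf2, six3, rax and pax6 limit what can be seen; the causes of the shifts below were not tested.

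The replicate numbers did not pair the libraries by the data (r = -0.08 across genes between the differences of same-numbered libraries). With the replicate number as a block, 1245 genes were called in place of 1134 (699 lower and 546 higher), otx1 and otx2 stayed called, 10 midbrain, hindbrain and posterior genes were lower in place of 5, and 1 anterior neural gene was higher.

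Over the libraries left out, all calls ranged from 750 to 2346 and calls lower from 337 to 1493 (the extremes without the second and the first library labelled Foxh1 MO). Calls lower were 862 with no filter and 872 on log2(TPM + 0.1), in place of 560. Anterior neural genes called lower were 2 to 6 and higher 0 to 1 over the libraries left out; 5 were lower with no filter, and 1 was higher with upper-quartile factors or no filter and 2 on either TPM scale. On the cement gland list 1 was higher with no filter or on either TPM scale. Midbrain, hindbrain and posterior genes called lower were 10 with upper-quartile factors, 9 with no filter, 11 on log2(TPM + 1) and 12 on log2(TPM + 0.1), and 3 to 7 lower and 1 to 2 higher over the libraries left out. Early neural genes were 6 to 10 lower and 1 to 2 higher, with 1 higher by DESeq2. Head organizer genes were 1 to 3 higher. Mesoderm and endoderm markers were 2 to 5 lower and 0 to 1 higher, with 7 lower on log2(TPM + 0.1) and 2 higher on log2(TPM + 1). Non-neural ectoderm genes were 1 to 5 lower and 6 to 13 higher. Among related genes 1 was lower with no filter and 0 to 1 over the libraries left out, and 1 was higher with no filter or on either TPM scale.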

Other observations

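The genes next to otx1 and otx2 in the RefSeq order of assembly UCB_Xtro_10.0 were not called. Beside otx1, wdpcp and ehbp1 had log2 fold changes of -0.01 and -0.16 (edgeR adjusted p = 0.982 and 0.557). Beside otx2, exoc5 and tmem260 had 0.35 and -0.09 (edgeR adjusted p = 0.149 and 0.820). Of the 14 nearest protein-coding neighbours of the 7 genes, 11 were tested and 1 was called: appl1, beside hesx1, at 56.6 CPM in Foxh1 MO and 92.1 CPM in control MO (log2 fold change -0.70, edgeR adjusted p = 0.0233). Among all tested genes 8.24% were called in either direction, so 1 of 11 is near the background share. The neighbours were looked up after the values of the 7 genes were known.

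The files list 4 transcripts for otx1, 2 for otx2 and 5 for pax6. The mean transcript length that RSEM gives per gene and library follows which of them take the reads. For otx1 it was 2289 and 2292 bases in Foxh1 MO, against 2292 and 2289 bases in control MO. For otx2 it was 2059 and 2034 bases in Foxh1 MO, against 2043 and 2054 bases in control MO. Neither gene's lengths separated the groups. Pax6 varied more, at 2555 and 2865 bases in Foxh1 MO, against 2747 and 2681 bases in control MO, on 31 to 43 counts per library.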
